A study of Mus musculus with 6 samples.

Results

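The genes described here make and load MHC class I molecules: the heavy chains H2-K1, H2-D1 and H2-T23, the light chain B2m, the peptide transporter Tap1 and Tap2, the loading factor Tapbp, the regulator Nlrc5 and the immunoproteasome subunits Psmb8 and Psmb9. These 10 genes were listed by name. Of them, 9 were matched to the 37991 rows of the deposited count table. Psmb9 was not matched to a row of counts and is given from the authors' own comparison alone. All 9 genes with counts passed the filter on low counts.

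RNA was sequenced from regulatory T cells (Treg), CD4 T cells that express Foxp3 and hold immune responses in check, which were sorted by YFP from mouse spleen. The study asks how Treg differ when they lack KAP1, a co-repressor encoded by Trim28 that KRAB zinc finger proteins recruit to DNA. The labels name 3 libraries as KAP1 deficient and 3 as wild type and KAP1 sufficient. Both groups carry the YFP reporter by which they were sorted. The labels give the strain as C57BL/6 for all sufficient replicates and deficient replicate 1, C57BL/7 for deficient replicate 2 and C57BL/8 for deficient replicate 3. The number after the slash rises with the deficient replicate number. Whether these labels name separate strains or are errors of entry cannot be told from the sources used here. The sources used here do not give the Trim28 allele, the driver of its deletion, or the age of the mice. The labels do not say that replicates came from separate mice, so p-values measure only how these samples vary, which may be technical.

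Class I molecules display peptides from inside the cell to CD8 T cells and to receptors of natural killer cells. Peptides are cut by the proteasome, pumped into the endoplasmic reticulum by the TAP transporter and loaded onto a heavy chain paired with beta-2 microglobulin. Nlrc5 is the class I transactivator, and interferon-gamma is known to raise most of these genes together.

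Trim28 went against the label in 2 libraries. It had 23.01, 18.6 and 231 CPM (each count as a share of its library's total, scaled up) in the libraries labelled deficient replicates 1, 2 and 3, against 244, 244 and 21.2 CPM in those labelled sufficient replicates 1, 2 and 3. Each member was therefore compared in 3 ways: by label over 6 libraries, by label over the 4 libraries of replicates 1 and 2, and by Trim28 level over 6 libraries. The last sets deficient 1, deficient 2 and sufficient 3, called low Trim28, against deficient 3, sufficient 1 and sufficient 2, called high Trim28. That split rests on a measured transcript and not on a labelled group, and the 3 comparisons share libraries. Directions by label over 6 libraries include 2 libraries in which Trim28 opposes the label.

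The libraries held 9954344 to 10994745 counts, and the members with counts had between 3746 and 50226 counts in a library. Foxp3 ranged from 5934 to 7546 counts and Cd4 from 8380 to 10055, while Ms4a1 and Pax5 of B cells had at most 1 count each, Cd8a at most 5, and Itgax and Ncr1 were at 0 in every library. Summed Treg markers ran from 4091 to 4232 CPM in low Trim28 libraries and from 4310 to 4364 CPM in high Trim28 libraries. The 8 B cell markers summed to 544 to 581 CPM in low and 606 to 697 CPM in high Trim28 libraries, and the 6 myeloid markers to 264 to 284 CPM in low and 305 to 349 CPM in high Trim28 libraries. These sums came mostly from Ighm (5303 to 6810 counts) and Ctss (2607 to 3465 counts), and the part of other cell types in the results below was not tested. The 8 dendritic and class II markers summed to 31.3 to 33.8 CPM in low and 32.0 to 40.3 CPM in high Trim28 libraries, the 4 stromal markers to 199 to 224 and 226 to 247 CPM, and the CD8 and natural killer lists overlapped. By Trim28 level, Cd22, Igkc, Ctss and Nkg7 fell and Klrb1c and Zbtb46 rose (edgeR adjusted p from 4.08e-06 to 0.0366). Deficient replicate 3 stood apart from the other high Trim28 libraries. Its chi-square over genes, per degree of freedom, was 7.66 with sufficient 1 and 8.13 with sufficient 2. Between sufficient 1 and sufficient 2 this value was 2.94. Deficient replicate 3 was also far from the low Trim28 libraries, at 9.005 to 9.187, while those were at 2.52 to 3.24 from each other.

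Per kilobase of annotated exon, B2m stood highest of the members, at 2979 ± 65.0 CPM per kilobase (SD, n = 6 libraries), the third highest of 32919 named genes. H2-K1 followed at 1589 ± 68.3 CPM per kilobase (rank 8) and H2-D1 at 965 ± 50.1 (rank 16). The ranges of these 3 genes over the libraries did not overlap, and the level of B2m was 1.88 times that of H2-K1 and 3.09 times that of H2-D1. Lengths here merge all annotated exons of a gene, 860 bases for B2m and 2938 for H2-K1. The ratios and the order of members therefore depend on the annotation. Before division by length, the means were 4668 CPM for H2-K1, 2562 for B2m and 2488 for H2-D1. A step down, H2-T23 had 153 ± 13.3 CPM per kilobase, Tapbp 133 ± 2.74, Psmb8 121 ± 7.91, Tap1 118 ± 7.18, Tap2 106 ± 9.65 and Nlrc5 86.7 ± 13.3 (rank 457). Each of these 6 overlapped its neighbour in that order, so the order of neighbours is not settled by the spread. The lowest library of H2-T23, at 136 CPM per kilobase, lay above the highest of Psmb8, at 131, and above all of Tap1, Tap2 and Nlrc5. The 9 members together made up 1.32%, 1.32% and 1.22% of all counts in deficient replicates 1 to 3, against 1.28%, 1.24% and 1.32% in sufficient replicates 1 to 3.

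**Figure D1:**
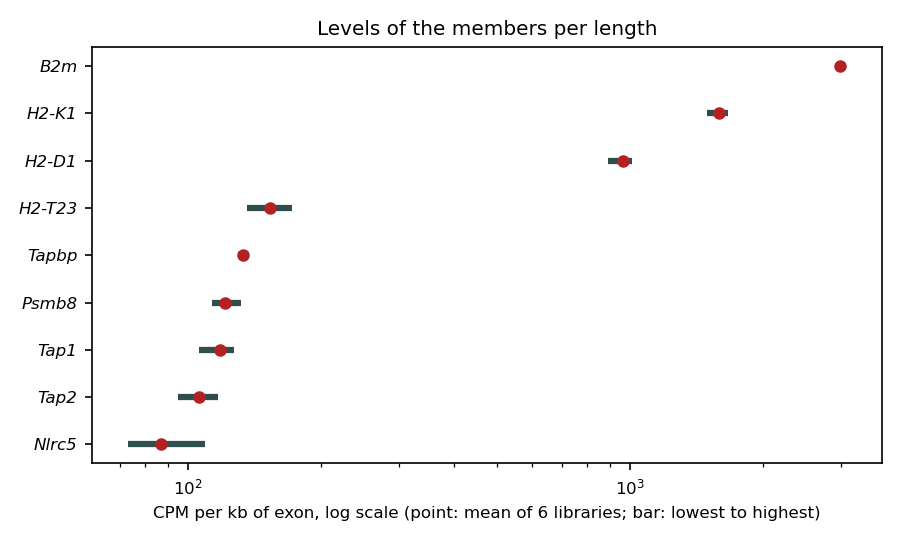
Level of each member in CPM per kilobase of annotated exon, on a log axis. Points are the mean of 6 libraries and bars run from the lowest to the highest library; B2m, H2-K1 and H2-D1 stand above the other 6 members, whose bars overlap their neighbours.

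Promoters of members are shown because the heavy chains H2-K1 and H2-D1 share much of their upstream sequence. Both were highest in the same library, but so were H2-T23, Tap1, Tap2 and Tapbp. Whether promoter sequence bears on these levels was not tested. The windows are RefSeq entries on GRCm38.p6, from 250 bases before to 50 after the start, matched by symbol for 8 of the 10 members; Tap2 and Nlrc5 had no entry. Capitals mark matches, on either strand, to GAAANNGAA or GAANNGAAA (interferon element cores, in which N is any base), to TGACGC or TGACGT (CRE-like), to CCAAT (Y box), and to GGGATTCCC or GGGACTTTC (kB cores). H2-K1 (chr17:34000284-34000583, minus strand, the lower of 2 overlapping windows), H2-D1 (chr17:35262844-35263143, plus strand), H2-T23 (chr17:36032652-36032951, minus strand), B2m (chr2:122147437-122147736, plus strand) and Tap1 (chr17:34187306-34187605, plus strand) read, 5′ to 3′:
H2-K1: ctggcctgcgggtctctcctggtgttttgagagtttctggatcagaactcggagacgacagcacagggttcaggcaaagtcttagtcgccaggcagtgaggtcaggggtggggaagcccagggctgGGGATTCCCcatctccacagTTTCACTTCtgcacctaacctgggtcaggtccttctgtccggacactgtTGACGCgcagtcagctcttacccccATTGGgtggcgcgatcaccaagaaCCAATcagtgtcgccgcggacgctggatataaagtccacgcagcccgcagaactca
H2-D1: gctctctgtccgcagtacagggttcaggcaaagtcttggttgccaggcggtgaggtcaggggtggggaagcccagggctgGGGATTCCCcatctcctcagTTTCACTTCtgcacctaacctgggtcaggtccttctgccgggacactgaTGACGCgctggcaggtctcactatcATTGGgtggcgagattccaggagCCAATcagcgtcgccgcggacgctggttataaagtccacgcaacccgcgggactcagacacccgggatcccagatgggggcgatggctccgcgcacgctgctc
H2-T23: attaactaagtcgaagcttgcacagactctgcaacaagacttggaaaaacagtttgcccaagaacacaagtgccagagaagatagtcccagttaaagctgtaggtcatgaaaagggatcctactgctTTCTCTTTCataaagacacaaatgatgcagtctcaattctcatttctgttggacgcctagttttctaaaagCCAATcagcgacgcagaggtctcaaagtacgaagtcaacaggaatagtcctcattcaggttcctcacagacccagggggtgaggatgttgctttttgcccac
B2m: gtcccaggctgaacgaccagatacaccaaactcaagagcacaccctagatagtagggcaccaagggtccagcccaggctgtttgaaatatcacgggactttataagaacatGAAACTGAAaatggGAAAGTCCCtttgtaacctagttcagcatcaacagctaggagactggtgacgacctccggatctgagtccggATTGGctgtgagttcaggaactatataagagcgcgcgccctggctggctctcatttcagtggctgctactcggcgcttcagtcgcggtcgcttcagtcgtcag
Tap1: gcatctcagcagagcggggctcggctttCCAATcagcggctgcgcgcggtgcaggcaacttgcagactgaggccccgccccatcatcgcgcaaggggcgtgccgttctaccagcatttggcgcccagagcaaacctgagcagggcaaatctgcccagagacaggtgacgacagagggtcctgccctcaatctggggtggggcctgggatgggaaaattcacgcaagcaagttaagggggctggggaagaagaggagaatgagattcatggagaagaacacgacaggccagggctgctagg

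H2-K1 and H2-D1 shared a run of 47 identical bases in these windows, and H2-K1 shared at most 8 in a row with H2-T23 or B2m. GGGATTCCC or GGGACTTTC was found in the windows of H2-K1, H2-D1 and B2m, and in 0.706% of 32851 promoters of the same length. The interferon core GAAANNGAA was found in H2-T23 and B2m (8.56% of promoters), and GAANNGAAA, added after the sequences were seen, in H2-K1 and H2-D1 (7.52%). TGACGC was found in H2-K1 and H2-D1, where 14.0% of promoters hold it or TGACGT. The Y box CCAAT was in 7 of the 8 matched members, all but Psmb8, and in 37.4% of promoters. The windows of Tap1 and Psmb9, read on opposite strands, overlapped by 275 bases (chr17:34187306-34187580), with starts 226 bases apart. A match of letters is a description and no site was measured here.

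H2-K1 (ENSMUSG00000061232, chr17:33996017-34000347, mm10) encodes the classical heavy chain K. It had 4790, 4831 and 4383 CPM in deficient replicates 1 to 3, against 4646, 4482 and 4876 CPM in sufficient replicates 1 to 3, means of 4668 ± 248 and 4668 ± 198 CPM (SD, n = 3 each). The labelled groups overlapped, with a log2 difference of -0.0020 ± 0.07 (SE, edgeR adjusted p = 0.996). By Trim28 level the groups did not overlap, at 4832 ± 42.8 CPM in low and 4504 ± 133 CPM in high Trim28 libraries, but the log2 fold change of 0.11 ± 0.05 did not pass the test (edgeR adjusted p = 0.217).

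H2-D1 (ENSMUSG00000073411, chr17:35262730-35267499) encodes the classical heavy chain D. It had 2596, 2589 and 2372 CPM in deficient replicates 1 to 3, against 2470, 2301 and 2602 CPM in sufficient replicates 1 to 3. The labelled groups overlapped (log2 fold change 0.03 ± 0.07, edgeR adjusted p = 0.906). Low Trim28 libraries lay within a narrow band, at 2596 ± 6.23 CPM, above all high Trim28 libraries at 2381 ± 84.8 CPM (SD, n = 3 each). That log2 fold change was 0.13 ± 0.05, with an edgeR adjusted p of 0.134.

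Reads of these heavy chains can be hard to place. Of all 50-base windows of H2-K1 transcripts 9.63% also occur in another gene, and of H2-D1 transcripts 12.8%, with 4.08% of the H2-K1 windows found in H2-D1. Their longest shared coding run is 91 bases (H2-K1 chr17:33997343-33997433, minus strand; H2-D1 chr17:35265911-35266001, plus strand; GRCm38, inside 1 exon of each), printed to show what a read would have to exceed to tell them apart:
H2-K1 and H2-D1: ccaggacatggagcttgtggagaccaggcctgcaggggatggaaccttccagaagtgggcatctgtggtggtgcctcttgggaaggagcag

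H2-T23 (ENSMUSG00000067212, chr17:36029773-36032855) encodes Qa-1, a non-classical chain read by natural killer receptors. It had 408, 448 and 443 CPM in deficient replicates 1 to 3, against 467, 392 and 496 CPM in sufficient replicates 1 to 3. Groups overlapped in every comparison. The log2 fold change was -0.06 ± 0.09 by label (edgeR adjusted p = 0.857) and 0.06 ± 0.08 by Trim28 level (edgeR adjusted p = 0.681), and 13.6% of its 50-base windows occur in other genes.

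B2m (ENSMUSG00000060802, chr2:122147686-122153083), the light chain that every class I heavy chain binds, was the member with the opposite sign by Trim28 level. It had 2527, 2530 and 2547 CPM in deficient replicates 1 to 3, against 2617, 2646 and 2507 CPM in sufficient replicates 1 to 3. Low Trim28 libraries, at 2521 ± 12.5 CPM, lay below all high Trim28 libraries, at 2603 ± 50.9 CPM (SD, n = 3 each), yet the difference was small, with a log2 fold change of -0.04 ± 0.05 and an edgeR adjusted p of 0.715. The 95% interval of that difference ran from 0.906 to 1.05-fold.

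**Figure D2:**
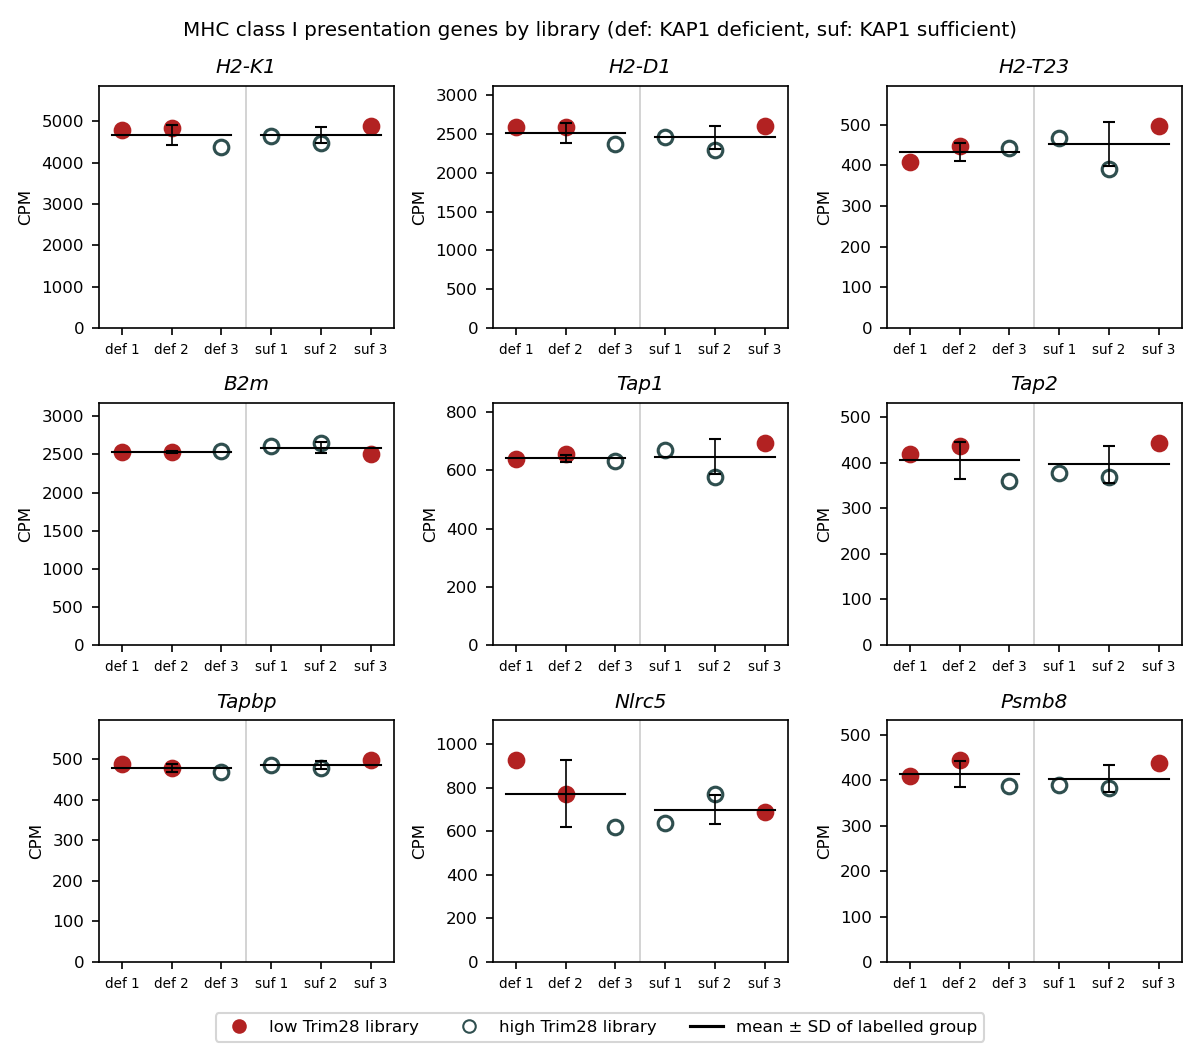
CPM of the 9 members with counts in each library, KAP1 deficient replicates left of KAP1 sufficient replicates, each axis starting at 0. Lines with bars are the mean ± SD of 3 libraries of a labelled group; filled points are low and open points high Trim28 libraries, and in Tap2 the filled points (418 to 442 CPM) lie above all open points (359 to 377 CPM).

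Tap2 passed the test in the comparison by Trim28 level and in that of 4 libraries, but not by label over 6 libraries. Tap2 (ENSMUSG00000024339, chr17:34203527-34216321) encodes a subunit of the TAP transporter. It had 418, 437 and 359 CPM in deficient replicates 1 to 3, against 377, 368 and 442 CPM in sufficient replicates 1 to 3. By label the groups overlapped, with a log2 difference of 0.03 ± 0.10 (edgeR adjusted p = 0.945). By Trim28 level it rose to 432 ± 12.6 CPM in low Trim28 libraries, against 368 ± 9.03 CPM in high Trim28 libraries (SD, n = 3 each). That is 1.18-fold, with a 95% interval of 1.09 to 1.28-fold, a log2 fold change of 0.24 ± 0.05 and an edgeR adjusted p of 0.0104. Without deficient replicate 2 the same log2 fold change was 0.24 with an edgeR adjusted p of 0.0517, and without sufficient replicate 3 it was 0.23 with an edgeR adjusted p of 0.0701. Exons of 2 predicted genes cover 18.5% of those of Tap2, and each had at most 3 counts in any library. How reads in the overlap were counted is not stated, so its effect on Tap2 is not known.

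Tap1 (ENSMUSG00000037321, chr17:34187553-34197225), which encodes the other TAP subunit, had 638, 656 and 632 CPM in deficient replicates 1 to 3, against 670, 579 and 693 CPM in sufficient replicates 1 to 3. Groups overlapped both by label and by Trim28 level. Its log2 fold change by Trim28 level was 0.09 ± 0.06 (edgeR adjusted p = 0.431). The difference between the responses of Tap2 and Tap1 was not tested.

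Tapbp (ENSMUSG00000024308, chr17:33915899-33929292) encodes tapasin, which holds the empty class I molecule at the transporter. It varied least relative to its mean, with a coefficient of variation of 2.06% over the 6 libraries, and had 489, 478 and 470 CPM in deficient replicates 1 to 3, against 485, 478 and 498 CPM in sufficient replicates 1 to 3. Groups overlapped by label and by Trim28 level, and its 95% interval by Trim28 level was 0.955 to 1.11-fold. Exons of other genes, Zbtb22 on the same strand among them, cover 29.0% of those of Tapbp, and Zbtb22 had 375 to 427 counts.

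Psmb8 (ENSMUSG00000024338, chr17:34197721-34201454) encodes LMP7, a catalytic subunit of the immunoproteasome. It had 410, 444 and 387 CPM in deficient replicates 1 to 3, against 391, 383 and 438 CPM in sufficient replicates 1 to 3. By Trim28 level the groups did not overlap, at 431 ± 18.2 CPM in low and 387 ± 3.89 CPM in high Trim28 libraries (SD, n = 3 each). The 1.12-fold difference missed the threshold, with a log2 fold change of 0.16 ± 0.05 and an edgeR adjusted p of 0.0723. Without deficient replicate 3 it passed, with an edgeR adjusted p of 0.0197. With any other library left out it did not, at edgeR adjusted p values of 0.107 to 0.237. Exons of a predicted gene on the opposite strand, Gm20496, cover 14.7% of those of Psmb8. Gm20496 had at most 3 counts in any library.

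Nlrc5 (ENSMUSG00000074151, chr8:94434356-94527272), the class I transactivator, varied most among libraries. It had 926, 772 and 621 CPM in deficient replicates 1 to 3, against 639, 770 and 689 CPM in sufficient replicates 1 to 3, and its highest library was 1.49 times its lowest. Both extremes carried the deficient label, and groups overlapped by label and by Trim28 level. By Trim28 level its log2 fold change was 0.24 ± 0.12, as large as that of Tap2, with an edgeR adjusted p of 0.309 and a 95% interval of 0.967 to 1.45-fold. With no filter on low counts the edgeR adjusted p was 0.0154 at a log2 fold change of 0.24. Under every other alternative by Trim28 level it did not pass, among them DESeq2 (adjusted p = 0.566) and limma-voom (adjusted p = 0.192).

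By label over 6 libraries, none of the 9 members passed the test, where 0.0165% of the 12158 genes tested did (edgeR adjusted p under 0.05). None was past an unadjusted edgeR p of 0.05 either, where 7.76% of genes were, and DESeq2 and limma-voom each called 0 members. No member had groups that did not overlap, where 6.73% of genes did so with deficient libraries higher and 6.05% with deficient libraries lower. Log2 fold changes ran from -0.06 ± 0.09 (H2-T23) to 0.14 ± 0.15 (Nlrc5), with edgeR adjusted p values of 0.812 to 0.996. The median log2 fold change of the members was -0.0020, beside -0.0037 over all genes.

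Over the 4 libraries of replicates 1 and 2, 1 of 9 members rose in deficient libraries, where 9.96% of 12183 genes did. That member was Tap2, with a log2 difference of 0.20 ± 0.05 (edgeR adjusted p = 0.0123). Leaving out any of these libraries leaves 1 library in a group, so for single members only the size of the difference is given then. For Tap2 it ran from 0.18 without deficient replicate 2 to 0.23 without deficient replicate 1. Psmb8 had a log2 difference of 0.15 ± 0.05 (edgeR adjusted p = 0.0711) and H2-D1 of 0.13 ± 0.05 (edgeR adjusted p = 0.129). Nlrc5 had 0.28 ± 0.13 (edgeR adjusted p = 0.238), with 0.40 without deficient replicate 2 and 0.14 without deficient replicate 1. H2-D1 was at 0.18 without sufficient replicate 1 and at 0.07 without sufficient replicate 2. H2-K1, H2-T23, B2m, Tap1 and Tapbp did not pass, with 95% intervals that lie between 0.882 and 1.14-fold in all. The median over the members was 0.08, beside -0.0021 over all genes.

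By Trim28 level, 1 of 9 members rose in low Trim28 libraries, where 4.61% of 12158 genes did. Of the 9, 4 had low Trim28 libraries all above high ones (H2-K1, H2-D1, Tap2 and Psmb8), where 11.9% of genes did, and 1, B2m, all below, where 14.5% did. An unadjusted p under 0.05 was reached by 4 of 9 members and by 22.3% of genes, and the member count was 2 with upper-quartile factors or without deficient replicate 1. The median log2 fold change was 0.11 over the members and 0.0021 over all genes. The count of called members went to 0 without deficient replicate 2 or sufficient replicate 3, and to 2 without deficient replicate 3. Over all genes, calls numbered 564, 596 and 2738 in these 3 settings, against 1000 with all libraries. Outside Tap2 and Nlrc5, the 95% intervals of the members lay between 0.906 and 1.21-fold. In sorted bulk cells, fewer cells of a type and less RNA per cell cannot be told apart.

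**Figure D3:**
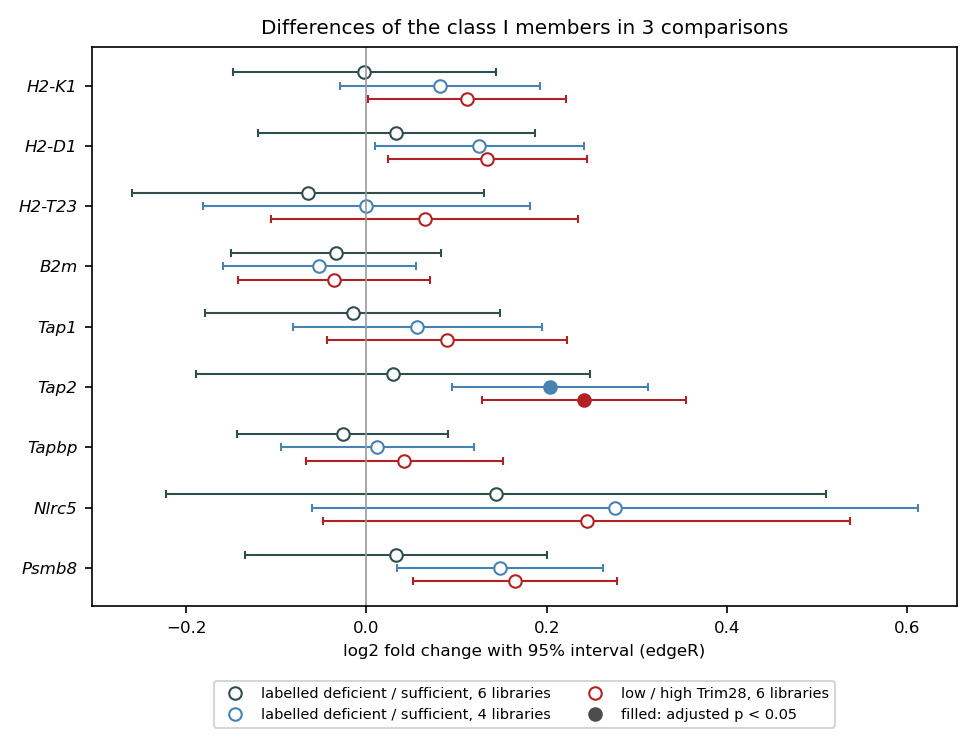
log2 fold change with its 95% interval (edgeR) of each member by label over 6 libraries, by label over 4 libraries and by Trim28 level; values above 0 are higher in deficient or low Trim28 libraries. Only Tap2 has filled points (adjusted p under 0.05), at 0.20 over 4 libraries and 0.24 by Trim28 level.

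Across single libraries the members moved in part together. The library labelled sufficient replicate 3 was the highest of the 6 in H2-K1, H2-D1, H2-T23, Tap1, Tap2 and Tapbp, and the lowest in B2m. After each gene's log2 CPM was scaled to a z-score, the mean over the 9 members was 0.29, 0.41 and -0.80 in deficient replicates 1 to 3, against 0.02, -0.66 and 0.75 in sufficient replicates 1 to 3. Among 8691 other genes whose mean log2 CPM reached 3, those closest to this mean by Pearson correlation over the 6 libraries were Slc17a9 (r = 0.995), Acap1 (0.993), Irf2bpl (0.981), Sh3gl1 (0.980) and Twf2 (0.976). With 6 libraries, 137 genes had r above 0.9, so these values describe the libraries only. Slc17a9, for example, had 178, 182 and 147 CPM in deficient replicates 1 to 3, against 166, 152 and 191 CPM in sufficient replicates 1 to 3.

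Other genes of the pathway were taken from 6 lists with 71 genes, of which 61 could be tested by label and by Trim28 level. By label none passed the test with edgeR, DESeq2 or limma-voom, where edgeR called 0.0165% of all genes tested. An unadjusted edgeR p under 0.05 was reached by 1 of the 61, and by 7.76% of all genes. Over 4 libraries 12 of 62 rose in deficient libraries, where 9.96% of all genes tested did, and 3 fell, where 7.39% did. By Trim28 level 8 of 61 rose in low Trim28 libraries, where 4.61% of all genes tested did, and 2 fell, where 3.61% did, so the count that fell is near the background. That last count of 10 was 19 without deficient replicate 3 and 3 without deficient replicate 2, and was 5 or 6 when each of the other libraries was left out in turn. Over all genes, calls numbered 1000 of 12158 with all libraries. They numbered 2738 of 12307 without deficient replicate 3 and 564 of 12328 without deficient replicate 2. With each of the other libraries left out, 556 to 649 genes were called. The size of the excess therefore depends on the libraries kept.

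Of the other heavy chains, 2 of 11 rose by Trim28 level (4.61% of all genes tested) and none fell (3.61%), with a list median of 0.13 beside 0.0021 over all genes. These were H2-Q6 and H2-Q7, which encode the non-classical Qa-2 chains. H2-Q6 had 542, 566 and 516 CPM in low Trim28 libraries (deficient 1, deficient 2, sufficient 3), against 461, 463 and 448 CPM in high Trim28 libraries (deficient 3, sufficient 1, sufficient 2). The groups did not overlap, and the log2 fold change was 0.25 (edgeR adjusted p = 0.00847). H2-Q7 had 1049, 985 and 1001 CPM in low Trim28 libraries, against 789, 937 and 826 CPM in high Trim28 libraries, a log2 difference of 0.26 (edgeR adjusted p = 0.0266). H2-Q7 shares 3.67% of the 50-base windows of H2-K1 and 4.75% of those of H2-D1, so reads may pass between them.

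Of the 8 other proteasome genes, 1 rose by Trim28 level, where 4.61% of all genes did, and the list median was 0.0092. It was Psmb10, which encodes MECL-1, the third catalytic subunit of the immunoproteasome beside LMP7 and LMP2. Psmb10 had 142, 132 and 146 CPM in low Trim28 libraries, against 113, 125 and 121 CPM in high Trim28 libraries, with no overlap and a log2 difference of 0.24 (edgeR adjusted p = 0.0311). Of the 10 genes of peptide loading and trimming none passed, where 4.61% of all genes rose and 3.61% fell. An unadjusted edgeR p under 0.05 was reached by 2 of the 10, and by 22.3% of all genes. The smallest adjusted p there belonged to Tapbpl, a tapasin relative that edits class I peptides, with a log2 difference of 0.18 (edgeR adjusted p = 0.0741), and to the intramembrane protease Sppl2a, with 0.16 (edgeR adjusted p = 0.141).

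Of the 13 regulators of class I transcription tested, none passed by Trim28 level, where 4.61% of all genes rose and 3.61% fell. An unadjusted edgeR p under 0.05 was reached by 1 of the 13, and by 22.3% of all genes. Rfx5, a subunit of the complex that Nlrc5 joins at class I promoters, had 86.5 ± 3.65 CPM in low and 99.0 ± 6.30 CPM in high Trim28 libraries (SD, n = 3 each), a log2 difference of -0.19 (edgeR adjusted p = 0.0860). Irf2, an interferon regulatory factor, had a log2 difference of -0.15 (edgeR adjusted p = 0.245).

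Of the 10 interferon receptor and signalling genes, 3 rose by Trim28 level, where 4.61% of all genes did, and none fell, where 3.61% did. Ifnar2, a chain of the type I interferon receptor, had 107, 114 and 101 CPM in low Trim28 libraries, against 87.6, 89.4 and 88.8 CPM in high Trim28 libraries (log2 fold change 0.29, edgeR adjusted p = 0.00844). Ifngr1, the ligand-binding chain of the interferon-gamma receptor, had 275 ± 18.3 CPM in low and 234 ± 7.94 CPM in high Trim28 libraries (log2 fold change 0.24, edgeR adjusted p = 0.0195). Socs1, an inhibitor of that signal, had 110 ± 13.4 CPM in low and 83.8 ± 5.75 CPM in high Trim28 libraries (log2 fold change 0.40, edgeR adjusted p = 0.00846). In all 3, low Trim28 libraries lay above all high ones, where 11.9% of all genes did so. In 1 other gene of the 10 they lay below all high ones, where 14.5% of all genes did.

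The 10 further interferon targets went both ways by Trim28 level, with 2 higher (4.61% of all genes), 2 lower (3.61%) and a median of 0.04. Usp18, which removes ISG15 from proteins and dampens type I interferon signalling, rose to 90.3, 84.5 and 75.8 CPM in low Trim28 libraries, against 46.0, 44.2 and 45.2 CPM in high Trim28 libraries, a log2 difference of 0.90 (edgeR adjusted p = 1.18e-06). Ifi47, an interferon-gamma-induced GTPase, rose with a log2 difference of 0.23 (edgeR adjusted p = 0.0377). Ifit3, an antiviral RNA-binding family member, fell to 12.4, 9.44 and 7.09 CPM in low Trim28 libraries, against 14.9, 19.8 and 21.9 CPM in high Trim28 libraries, a log2 difference of -0.96 (edgeR adjusted p = 0.0140). Its relative Ifit1 fell to 34.1 ± 2.70 CPM in low Trim28 libraries, against 48.9 ± 8.44 CPM in high Trim28 libraries (log2 fold change -0.51, edgeR adjusted p = 0.0247). In both Ifit genes deficient replicate 3 was the lowest of the high Trim28 libraries.

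**Figure D4:**
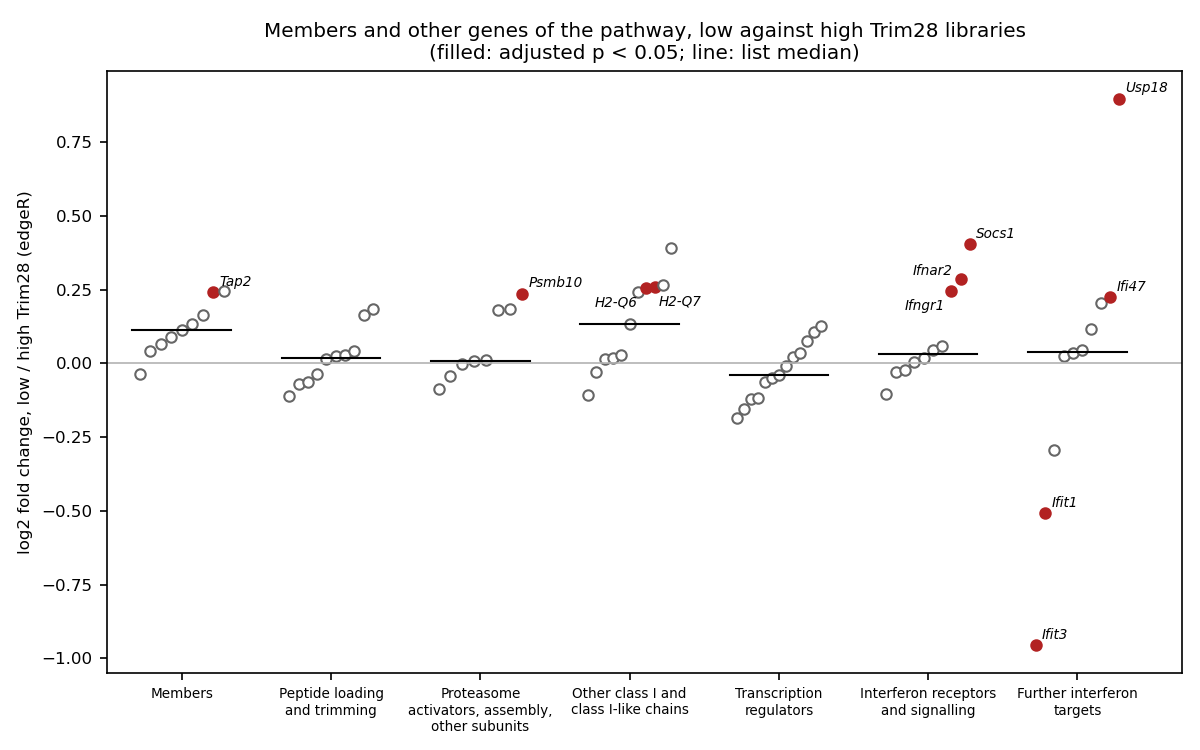
log2 fold change (edgeR) of low over high Trim28 libraries for the 9 members and for each tested gene of the 6 other lists; each point is a gene, the short line is the list's median and filled points have an adjusted p under 0.05. The members' median is 0.11, and the named points run from Ifit3 at -0.96 to Usp18 at 0.90.

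The authors' deposited table gives all 10 members. Its log2 fold changes were read as sufficient over deficient from Trim28's 3.11 there, so negative values are higher where Trim28 was lower. The sources used here do not say how libraries were assigned for it. In the counts, Trim28 had a log2 difference of -0.90 ± 1.46 (SE) by label over 6 libraries, deficient over sufficient. Low over high Trim28 libraries gave -3.51 ± 0.08, but those groups were made by the Trim28 level itself. In the authors' deposited table Tap2 had -0.23 ± 0.05 (SE) with an adjusted p of 0.0011 and a q-value of 0.0394. Psmb9, which encodes the immunoproteasome subunit LMP2, had -0.18 ± 0.06 in the authors' deposited table, with an adjusted p of 0.0490 and a q-value of 0.720. These 2 of 10 had an adjusted p under 0.05 in the authors' deposited table, where 6.87% of 12072 genes did. In the authors' deposited table H2-D1 had -0.14 (adjusted p = 0.0509), Psmb8 -0.14 (adjusted p = 0.104) and H2-K1 -0.12 (adjusted p = 0.126). The other 5 had adjusted p values from 0.421 (Tap1) to 0.763 (B2m) in the authors' deposited table, and B2m, at 0.04, was the member with a positive value.

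The mean level of H2-D1 in the authors' deposited table, 8638, was 33.8% of its mean in the count table, 25534. For Tap1 this share in the authors' deposited table was 83.7%, and for H2-K1 it was 100.2%. Over 8228 genes with a mean of at least 100 counts the median share was 98.2%, and 2.07% of them were under 50%. Why H2-D1 differs between the deposited tables was not tested, so its values from them are given apart.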

How the data were processed

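Per the labels, RNA from sorted splenic Treg was made into libraries with a TruSeq kit. Per the submitters' processing notes, the tools were TopHat2 2.1.1, HTSeq 0.7.2 and DESeq2, on mm10; their roles are not stated. The sources used here do not give the strand setting or annotation release, and reads of overlapping genes cannot be told apart. The authors deposited raw counts per gene, whole numbers without normalization. Per the file headers, their second table holds a mean level (a signal averaged over libraries), a log2 fold change, the standard error of that change, a score from the test, p-values (raw and adjusted) and q-values made in a way the sources used here do not state.

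The 10 members and all lists were chosen with earlier results of these data known. Gene names matched 32919 of 37991 rows, and rows without a name held 0.603% of counts. Positions and exon lengths are from GENCODE M21 on GRCm38, the assembly of mm10. Groups and replicate numbers came from the sample titles, and the low and high Trim28 groups from the Trim28 level of each library. CPM is a count over the library total, with no pseudocount, and log2 CPM used 0.5. The test on counts was from edgeR 4.0.16, run in R 4.3.3 (TMM factors, filterByExpr, robust quasi-likelihood test, Benjamini-Hochberg adjustment over all genes tested at 0.05). Standard errors are the size of the log2 fold change over the square root of F. Each fit was tested on simulated counts. Alternatives were DESeq2 1.42.0, limma-voom 3.58.1, other scaling factors, no filter, a replicate block and leaving out libraries. Between any 2 libraries the chi-square over genes was at least 2.52 per degree of freedom, more than sampling noise gives, and all 6 were kept as separate samples. Named genes are the members, Trim28, up to 4 called genes per list by Trim28 level (else the 2 with the smallest adjusted p) and the 5 genes most like the members; 1 gene of the marker lists is not reported here. Python 3.11.15 was used, with pandas 2.3.3 and numpy 2.4.6 for tables and matplotlib 3.10.9 for plots.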

Additional observations from a re-analysis of the deposited data

How the results depend on the processing

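Tap2 kept its direction by Trim28 level and over 4 libraries under every alternative run, at log2 fold changes of 0.22 to 0.27 and 0.17 to 0.23. Its call was kept in both comparisons under every alternative that left out no library. By Trim28 level it was lost without deficient replicate 2 or sufficient replicate 3, as given above. Over 4 libraries, members called numbered 3 with no filter on low counts and 2 with the replicate block, where Psmb8 joined at an edgeR adjusted p of 0.0464. By Trim28 level they numbered 2 with no filter. By label, leaving out both libraries in which Trim28 opposes the label gave 1 member, 15 pathway genes and 2114 genes called. Genes called by label numbered 6 with DESeq2, 1 with limma-voom and 0 with the replicate block (edgeR, 705 at an unadjusted p under 0.05). DESeq2 called 935 genes and 8 pathway genes over 4 libraries, and 1676 genes were called by Trim28 level with no filter. Deviations of same-numbered libraries from their group means correlated at -0.365, -0.292 and -0.613 by label. There, Trim28 opposes the label in both libraries of replicate 3, so those values cannot show whether the numbers pair libraries. By Trim28 level the correlations were -0.042, 0.024 and 0.020, so no pairing by number was seen. The block changed no other count of calls by over 1.5 times.

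Leaving out 1 library at a time gave, by label, 1 to 807 genes, 0 members and 0 to 4 pathway genes; over 4 libraries, 1632 to 1717 genes, 0 to 2 members and 7 to 19 pathway genes; and by Trim28 level, 556 to 2738 genes, 0 to 2 members and 3 to 19 pathway genes. Over 4 libraries each of these fits left 1 library in a group, whose spread cannot be measured. The counts over 4 libraries therefore cannot show how stable the calls are, and no conclusion is drawn from them. The highest count of genes by label came without sufficient replicate 3 and the highest by Trim28 level without deficient replicate 3.

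Members whose sign reversed had not passed the test in that comparison with all its libraries. By label, H2-K1 was at 4.3e-05 with library totals and 0.00078 with no filter, and without both doubted libraries H2-K1 was at 0.082, Tap1 at 0.057 and Tapbp at 0.012. Over 4 libraries, H2-T23 was at 0.0047 with limma-voom and 0.0037 with the replicate block, and Tapbp at -0.019 with upper-quartile factors. With 1 library left out, log2 fold changes by label spanned -0.034 to 0.048 for H2-K1, -0.015 to 0.082 for H2-D1, -0.16 to 0.0097 for H2-T23, -0.093 to 0.039 for Tap1, -0.025 to 0.12 for Tap2, -0.012 to 0.29 for Nlrc5 and -0.018 to 0.097 for Psmb8. Over 4 libraries they spanned -0.13 to 0.14 for H2-T23, -0.053 to 0.17 for Tap1 and -0.0086 to 0.033 for Tapbp, and by Trim28 level -0.0088 to 0.13 for H2-T23. The causes were not tested.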
